A study of Mus musculus with 18 samples.

Results

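The 27 genes described here make or sense cholesterol: the enzymes from acetyl-CoA to cholesterol, a sterol carrier, and the proteins that control the transcription factor SREBP2. They were taken by symbol from a list chosen with earlier results of these data known. All 27 were found among the 47729 gene identifiers in the count tables. Their RNA was measured by bulk poly(A) sequencing of epithelial cells sorted by flow cytometry from mouse ileum, the last stretch of small intestine, in 18 libraries. The 3 groups of 6 libraries were females on day 7 of lactation, and virgin females and virgin males matched to them in age. Animals ate the breeding diet RM3 or, for maintenance and experiment, RM1. Which group ate which is not stated, so a difference in diet cannot be told apart from one in lactation. The sources used here give no strain, genotype, age in weeks, sorting gate or batch. They also do not tie a library to its own animal, so each p-value rests on the spread between libraries, which may be technical. In bulk RNA, fewer cells of a type and less RNA per cell cannot be told apart.

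Cells build cholesterol from acetyl-CoA by way of mevalonate, farnesyl diphosphate, squalene and lanosterol. When membranes hold enough sterol, SREBP2 stays in the endoplasmic reticulum, bound to its escort Scap and held there by Insig1 or Insig2. When sterol runs low, Scap carries SREBP2 to the Golgi, the proteases encoded by Mbtps1 and Mbtps2 release its amino-terminal part, and this enters the nucleus and binds sterol response elements near its target genes. The gut epithelium is known as a major site of cholesterol synthesis, beside its uptake of dietary and biliary sterol.

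SREBP2 is known to act together with NF-Y, which binds CCAAT, and Sp1, which binds GC boxes such as GGGCGG. The stretches below are shown because they lie just before the start of an enzyme gene with a full sterol response element, of SREBP2's own gene, of the control gene that differed most between groups and of an enzyme gene dense in CCAAT. Promoters came from RefSeq (GRCm38.p6), which had an entry for 23 of the 27 members; Stard4, Fdps, Fdft1 and Sqle had none. Each stretch runs 5′ to 3′ on the gene's strand, ends before the gene's exons, and carries in capitals every match, on either strand, to TCACNCCAC or its core CACNCCA, to CCAAT and to GGGCGG.
Hmgcs1, chr13:119690201-119690350, plus strand: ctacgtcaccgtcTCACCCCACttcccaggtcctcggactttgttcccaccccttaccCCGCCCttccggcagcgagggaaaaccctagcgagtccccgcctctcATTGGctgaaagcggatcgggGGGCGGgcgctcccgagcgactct
Srebf2, chr15:82147031-82147180, plus strand: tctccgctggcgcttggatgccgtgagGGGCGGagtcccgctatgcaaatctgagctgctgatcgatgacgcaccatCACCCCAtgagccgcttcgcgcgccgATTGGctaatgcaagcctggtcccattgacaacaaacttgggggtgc
Insig2, chr1:121332590-121332739, minus strand: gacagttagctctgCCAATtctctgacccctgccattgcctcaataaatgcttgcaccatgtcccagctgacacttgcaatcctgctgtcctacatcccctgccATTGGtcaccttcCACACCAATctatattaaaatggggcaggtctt
Mvk, chr5:114444119-114444268, plus strand: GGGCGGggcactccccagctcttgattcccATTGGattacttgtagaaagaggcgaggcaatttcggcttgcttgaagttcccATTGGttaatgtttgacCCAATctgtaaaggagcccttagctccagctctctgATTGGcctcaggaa
In the Hmgcs1 stretch the capitals TCACCCCAC span bases 137 to 129 before the gene's start as RefSeq places it, which lies upstream of the GENCODE start used for the gene coordinates below. In Insig2 a core match and a CCAAT overlap. RefSeq also lists other starts of Insig2, with promoter entries at chr1:121327975-121328274 and chr1:121327629-121327928. Each of those whole entries holds 0 CCAAT and 1 GC box, and the first also holds 1 core match. Which start these cells use was not tested. The Srebf2 stretch has 1 core match, 1 CCAAT on the opposite strand and 1 GC box, and the Mvk stretch has 4 CCAAT matches and 1 GC box. The whole promoter entries, which are longer, hold 4 GC boxes for Srebf2, and 5 CCAAT matches and 2 GC boxes for Mvk.

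Within 250 bases before the start, TCACNCCAC was present in 1 of the 23 members, Hmgcs1, against 1.22% of the 27025 genes in the promoter table. The core CACNCCA was present in 6 (Acat2, Hmgcs1, Insig1, Insig2, Msmo1 and Srebf2; 26.1%), against 17.4% of all genes. CCAAT was present in 18 of 23 (78.3%), against 37.5% of all genes and 40.7% of the 10488 genes that were also tested for expression. GGGCGG was present in 19 of 23 (82.6%), against 35.4% of all genes and 62.0% of tested genes. These are matches of letters, with no measurement of binding.

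All 27 members were expressed, and all 27 passed the filter on low counts that left 15572 genes. The lowest count of any member in any library was 255, for Mbtps2. Libraries held between 34577104 and 49039300 counts, with overlapping ranges in the 3 groups. Levels are in CPM, counts scaled to a common library size with TMM factors, which correct for differences in library composition. The epithelial markers Epcam, Vil1 and Cdh1 were at 769 CPM or more in every library, and the ileal bile acid binding protein Fabp6 at 2163 CPM or more. The leukocyte marker Ptprc reached at most 0.373 CPM, and the stromal marker Lum was at 0 in all 18 libraries. Other markers were present in every library. Lyz2 and Itgam, listed for immune cells, reached 43.7 and 10.8 CPM. Pdgfrb, Lyve1 and Vim, listed for stroma, vessel and muscle, reached 13.3, 6.90 and 5.37 CPM. The remaining markers of both lists stayed at 2.86 CPM or less. Summed immune cell markers were lowest in virgin female 1 (13.4 CPM) and highest in virgin male 4 (52.5 CPM). Virgin female 2 and virgin male 6 stood apart in the predicted gene Gm42418, at 31048 and 29981 CPM against group medians of 2504 and 2092 CPM.

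Per kilobase of exon, the members covered a wide range of levels. Hmgcs1, the cytosolic HMG-CoA synthase, was highest at 74.3 ± 9.42 CPM per kb (SD, n = 18), above 94.9% of the genes tested. The sterol carrier Stard4 followed at 49.7 ± 4.55 CPM per kb, then Cyp51, which demethylates lanosterol, at 32.7 ± 5.64 and Idi1, which isomerises isopentenyl diphosphate, at 32.3 ± 5.54. Cyp51 and Idi1 did not differ in level beyond their spread. Nor did the next 6 in order, from Ebp at 26.4 ± 4.44 through Insig1, Sc5d, Sqle and Srebf2 to Fdft1 at 22.6 ± 4.12 CPM per kb. Msmo1 (17.8 ± 4.34), Insig2 (16.5 ± 6.69) and Pmvk (16.4 ± 4.67) also lay within each other's spread. At the low end were Lss at 3.70 ± 0.594, Ggps1 at 3.29 ± 0.290, Fdps at 2.48 ± 0.682 and Mbtps2 at 1.20 ± 0.175 CPM per kb. Fdps makes farnesyl diphosphate, and its low value carries a counting limit: 23.4% of its 50-base windows also occur in the predicted gene Gm43738, which overlaps it on the same strand. Acat2, an acetoacetyl-CoA thiolase, shares 39.1% of its windows with Acat3. Mbtps2 shares 27.6% with Yy2, which overlaps 2867 of its exonic bases on the same strand. Gm43738 and Yy2 each had a total count of 0 over all libraries. The levels of Fdps, Acat2 and Mbtps2 are thus uncertain if reads matching several places or overlapping genes were dropped or split. Fdft1 overlaps 774 exonic bases of Ctsb on the opposite strand and Tm7sf2 overlaps 532 of Vps51 on the same strand, and whether the counting used strand is not known.

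Lactating against virgin females asks how the pathway differs with lactation in one sex, and any difference in diet goes with it. Most enzymes had higher means in lactating females by small amounts, with fold changes up to 1.42, and no member passed the test. The SREBP2 control genes had a median log2 difference of 0.08, and the enzymes from mevalonate to isoprenoids one of 0.34. In all, 22 of the 27 log2 fold changes were above 0, against 49.4% of all genes, and their median was 0.20, against −0.00261 over all genes. By edgeR's quasi-likelihood test 0 of 27 members had an adjusted p under 0.05, where 0.0578% of the 15572 genes tested were called (0.0385% higher, 0.0193% lower). Without adjustment 9 members had a p under 0.05, all higher in lactating females, where 6.44% of genes did (3.4% higher, 3.04% lower). For 0 members did the groups not overlap, as they did not for 0.148% of genes (higher) and 0.141% (lower). DESeq2 called 1 member, Idi1, and 0.445% of genes, and limma voom called 0 members and 0.0193% of genes.

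**Figure D1:**
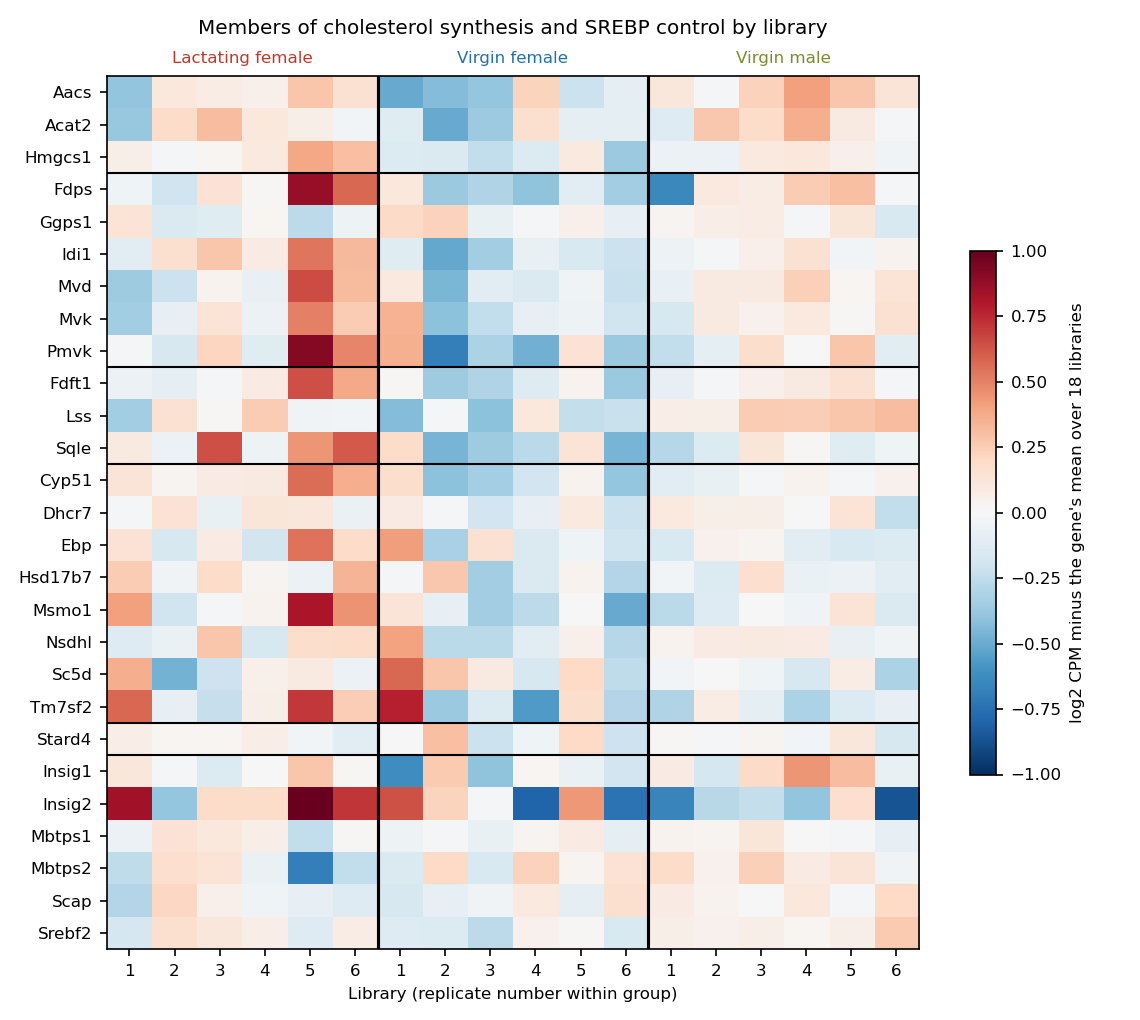
Level of each member (rows, grouped by step of the pathway from acetyl-CoA at the top to SREBP control at the bottom) in each of the 18 libraries (columns). Colour is the log2 CPM minus the gene's mean over all libraries, red above and blue below. Lactating 5 and 6 are red across most enzymes, virgin female 3 and 6 are blue, and the virgin males are pale.

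Of the 3 members that lead from acetyl-CoA towards mevalonate, Hmgcs1 (chr13:119690379-119708260, GRCm38) ran from 335 through a median of 358 to 442 CPM in lactating females. In virgin females it ran from 262 through 307 to 364 CPM, and in virgin males from 326 through 341 to 366 CPM. Only virgin female 5, at 364 CPM, reached into the lactating range, so the female groups overlapped by that library alone. The difference for Hmgcs1 was 0.30 on the log2 scale (SE 0.10, edgeR adjusted p = 0.524), with 6 of 6 lactating libraries above the virgin female mean. Aacs, which activates acetoacetate for lipid synthesis, differed by 0.27 (SE 0.13, edgeR adjusted p = 0.757) and Acat2 by 0.21 (SE 0.12).

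The 6 members from mevalonate to isoprenoid diphosphates included the smallest p of the pathway. Idi1 (chr13:8885501-8892451) ran from 104 through 129.7 to 162 CPM in lactating females and from 78.4 through 98.3 to 106 CPM in virgin females. Lactating 1, at 104 CPM, was the one lactating library within the virgin female range, and the male libraries lay at 108 to 124 CPM, above every virgin female. The difference for Idi1 was 0.45 (SE 0.10, edgeR adjusted p = 0.157), a fold of 1.37, with 6 of 6 lactating libraries above the virgin female mean. Of Idi1's windows, 17.7% also occur in Gm13502. By DESeq2 the adjusted p of Idi1 was 0.00599 with a difference of 0.45. With the cell cycle score as a covariate in edgeR, a fit that called 0.392% of genes, the adjusted p was 0.0477, again with a difference of 0.45.

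Fdps differed by 0.50 (SE 0.18, edgeR adjusted p = 0.595) and Pmvk, phosphomevalonate kinase, by 0.45 (SE 0.19, edgeR adjusted p = 0.717). Fdps (chr3:89093588-89101959) ran from 8.81 through 10.7 to 18.5 CPM in lactating and from 7.64 through 8.08 to 10.9 CPM in virgin females. Lactating 5 and 6 supplied the top of the range, at 18.5 and 15.1 CPM for Fdps and 51.3 and 38.0 CPM for Pmvk. Lactating 1, 2 and 4 lay among the virgin females in both genes. Mevalonate kinase Mvk (0.18) and mevalonate diphosphate decarboxylase Mvd (0.23) had smaller differences, and Ggps1, which leads to geranylgeranyl diphosphate and away from sterols, differed by −0.12 (SE 0.09).

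The enzymes that turn farnesyl diphosphate into lanosterol showed 2 of 3 members at an unadjusted p under 0.05. Sqle, squalene epoxidase and a rate-limiting step (chr15:59315077-59331192), ran from 120.2 through 151 to 195 CPM in lactating females. It ran from 90.3 through 100.4 to 142 CPM in virgin females and from 102 through 118 to 136 CPM in virgin males. Lactating 3, 5 and 6 lay at 169.8 CPM or more, above every other library, while virgin female 1 and 5, at 142 and 137 CPM, lay above the other 3 lactating libraries. The difference for Sqle was 0.49 (SE 0.15, edgeR adjusted p = 0.456). Fdft1, squalene synthase (chr14:63145150-63179578), ran from 88.4 through 96.1 to 147 CPM in lactating and from 72.5 through 81.2 to 96.4 CPM in virgin females, a difference of 0.36 (SE 0.12, edgeR adjusted p = 0.542). Its lactating values overlapped the virgin ones except in lactating 4, 5 and 6. Lss, which closes the sterol ring to lanosterol, differed by 0.20 (SE 0.11).

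Between lanosterol and cholesterol, 2 of 8 members had an unadjusted p under 0.05. Cyp51 (chr5:4081145-4104746) ran from 145 through 154 to 209.9 CPM in lactating and from 107 through 119 to 161 CPM in virgin females, a difference of 0.39 (SE 0.11, edgeR adjusted p = 0.421). The groups overlapped through virgin female 1 and 5, at 161 and 146 CPM. Msmo1, the sterol C4-methyl oxidase (chr8:64718139-64733792), ran from 93.1 through 126 to 188 CPM in lactating and from 75.3 through 95.01 to 117 CPM in virgin females, a difference of 0.45 (SE 0.15, edgeR adjusted p = 0.531). Lactating 1, 5 and 6 exceeded all virgin females in Msmo1, and lactating 2, 3 and 4 lay among them. The remaining enzymes of this stretch had differences from −0.17 for Sc5d, sterol C5-desaturase, to 0.25 for Tm7sf2, a sterol C14-reductase. Hsd17b7 (0.19), Nsdhl (0.11) and Ebp (0.12) lay between. Dhcr7, which makes the last double-bond reduction to cholesterol, differed by 0.09 (SE 0.08).

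**Figure D2:**
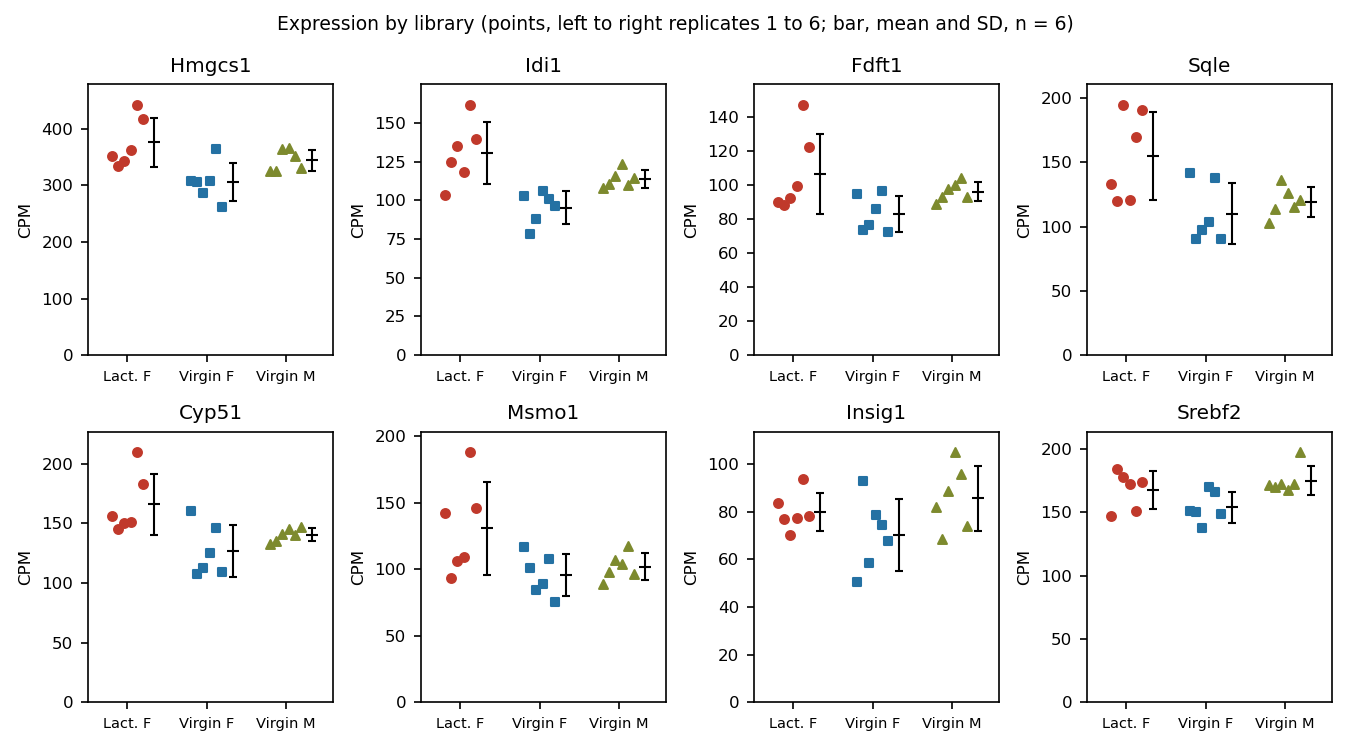
CPM of 8 members in every library, with points from left to right for replicates 1 to 6 and a bar for the mean and SD (n = 6), for lactating females (red circles), virgin females (blue squares) and virgin males (olive triangles). Hmgcs1, Idi1, Fdft1, Sqle, Cyp51 and Msmo1 have higher lactating means with overlapping points, and Insig1 and Srebf2 overlap throughout.

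Of the 6 SREBP control genes, 0 had an unadjusted p under 0.05 in this comparison. Srebf2, which encodes SREBP2 (chr15:82147181-82205379), ran from 147 through 173 to 184 CPM in lactating and from 138 through 151 to 170.2 CPM in virgin females, with wide overlap and a difference of 0.12 (SE 0.08, edgeR adjusted p = 0.903). Insig1, itself a target of SREBP2 (chr5:28071363-28078662), ran from 70.5 through 77.8 to 93.9 CPM in lactating and from 50.4 through 71.1 to 93.1 CPM in virgin females, a difference of 0.19 (SE 0.13). The virgin females spanned the whole lactating range of Insig1 apart from its top library. Insig2 differed by 0.44 (SE 0.26), and the proteases and Scap by 0.03 (Mbtps1), −0.19 (Mbtps2) and −0.03 (Scap). For Scap the approximate 95% interval ran from −0.19 to 0.14, and for the carrier Stard4, with a difference of −0.01, from −0.20 to 0.18.

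The libraries of a group did not move evenly. The median over members of the deviation from each gene's own mean was 0.28 in lactating 5 and 0.18 in lactating 6, the highest of the 18, and −0.26 in virgin female 3 and −0.22 in virgin female 6, the lowest. Without lactating 5 the members' median difference between the female groups was 0.15, and without lactating 1 it was 0.25. Cell cycle genes, which mark dividing crypt cells, gave a score (mean log2 CPM of 35 genes) of 4.44 ± 0.607 in lactating and 4.37 ± 0.569 in virgin females (SD, n = 6 each). With that score as a covariate the members' median was 0.19. Of 11 enteroendocrine markers tested, 10 were higher in lactating females, 0 called by edgeR and 6 at an unadjusted p under 0.05. Their summed level ran from 276 to 594 CPM in lactating and from 279 to 378 CPM in virgin females. Of 8 Paneth cell markers, 0 were above 0 and 1 had an unadjusted p under 0.05, and their summed level ran from 4783 to 13123 CPM in lactating and from 1423 to 18978 CPM in virgin females. No marker of either list was at 0 in any library. Of 15 early response and heat shock genes, 4 had an unadjusted p under 0.05, all lower in lactating females (Hspa1a −1.62, Hspa1b −1.53, Fosb −0.46, Dusp1 −0.39), and their summed level ran from 2850 to 4275 CPM in lactating and from 3635 to 4714 CPM in virgin females. Of 15 stromal, vessel and muscle markers, 4 were tested, and Vim differed by 0.85 (SE 0.16, edgeR adjusted p = 0.0506). The stromal sum ran from 14.6 to 20.7 CPM in lactating and from 12.1 to 20.3 CPM in virgin females, with the collagen genes Col1a1, Col1a2 and Col3a1 at 0.173 CPM or less in every library. The part of these cells and genes in the members' differences was not tested.

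Virgin males against virgin females compares the sexes without lactation, and shares the virgin female libraries with the comparison above. The smallest p-values were those of Lss, Aacs, Idi1 and Acat2, with higher means in males, and again no member passed the test. The number of members called was 0 of 27 by edgeR, by DESeq2 and by limma voom, where edgeR called 0.0835% of genes (0.045% higher, 0.0385% lower). Without adjustment 6 had a p under 0.05, all higher in males, where 8.32% of genes did (2.3% higher, 6.02% lower). Above 0 were 21 of 27 (48% of all genes), with a median of 0.11, against −0.0130 over all genes. The count of 6 was 3 without virgin female 2, without virgin female 3, without virgin male 3 or without virgin male 4, fits in which 0.948% to 1.9% of all genes were higher by that rule. The cell cycle score was 4.82 ± 0.164 in virgin males (SD, n = 6), above 4 of the 6 virgin females in every male library, and with it as a covariate the members' median was 0.17. Of 5 ileal markers, 0 were above 0 and 1 was called, Fgf15, an enterocyte hormone induced by bile acids (−2.97, SE 0.53, edgeR adjusted p = 0.0296). Their summed level ran from 2947 to 4714 CPM in virgin males and from 3626 to 9918 CPM in virgin females, and its part in the members' differences was not tested.

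Lss ran from 40.9 through 46.9 to 48.8 CPM in virgin males and from 29.2 through 33.5 to 42.4 CPM in virgin females, a difference of 0.40 (SE 0.11, edgeR adjusted p = 0.565). One female library, virgin female 4, lay within the male range of Lss. Aacs ran from 54.3 through 62.3 to 73.1 CPM in males and from 38.8 through 44.7 to 64.2 CPM in females, a difference of 0.41 (SE 0.13, edgeR adjusted p = 0.565). Acat2 ran from 26.9 through 32.4 to 38.0 CPM in males and from 20.8 through 27.4 to 32.95 CPM in females, with overlap, a difference of 0.29 (SE 0.12). For Idi1 the lowest male library, at 108 CPM, was above the highest female, at 106 CPM. The groups thus did not overlap in Idi1, as in 0.193% of all genes in that direction (0.238% in the other), and the difference was 0.25 (SE 0.10).

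Among the control genes, Insig1 ran from 68.5 through 85.4 to 105 CPM in males, a difference from virgin females of 0.28 (SE 0.13). Srebf2 ran from 167 through 172 to 198 CPM, a difference of 0.19 (SE 0.08). Both overlapped the virgin female values. The enzymes that led between the female groups had smaller differences here, at 0.17 for Hmgcs1, 0.11 for Sqle, 0.15 for Cyp51, 0.09 for Msmo1 and 0.21 for Fdft1. How these members differ between lactating females and males is given next.

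Lactating females against virgin males changes sex and lactation together. It shares its libraries with the comparisons above. The number of members called was 0 of 27 by edgeR, DESeq2 and limma voom, where edgeR called 0.764% of genes (0.629% higher, 0.135% lower). Without adjustment 4 members had a p under 0.05, all higher in lactating females, where 15.9% of genes did (10.5% higher, 5.4% lower), so the members' share was close to that of all genes. Above 0 were 18 of 27 (48.9% of all genes), and the median was 0.05. The groups overlapped for all 27, where they did not for 0.873% of genes (higher) and 0.469% (lower). That count of 4 was 1 without lactating 6 (8.44% of genes), and 2 without lactating 5 (8.15%) or without virgin male 1 (8.42%). The 4 were Insig2, Sqle, Msmo1 and Cyp51. Hmgcs1 differed by 0.13, Idi1 by 0.20, Fdft1 by 0.15, Srebf2 by −0.06 and Insig1 by −0.10.

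Markers of gut position and of other cells also differed in this comparison. All 5 ileal markers were above 0, 4 of them at an unadjusted p under 0.05, among them the bile acid transporter Slc10a2 (1.11, SE 0.32) and Fabp6 (1.07, SE 0.32), and 0 were called. Their summed level ran from 4710 to 15657 CPM in lactating females and from 2947 to 4714 CPM in virgin males. Of 11 villus tip genes, 9 were above 0 and 4 had an unadjusted p under 0.05, with Krt20 at 0.79 (SE 0.27), and their sum ran from 9700 to 45880 CPM in lactating females and from 8223 to 20383 CPM in males. Of 11 enteroendocrine markers tested, all 11 were above 0, 6 had an unadjusted p under 0.05 and Gcg was called (0.90, SE 0.20, edgeR adjusted p = 0.046), and their sum ran from 276 to 594 CPM in lactating females and from 214 to 449 CPM in males. Of the 4 stromal markers tested Vim was called (0.87, SE 0.16, edgeR adjusted p = 0.00812), and the stromal sum ran from 14.6 to 20.7 CPM in lactating females and from 11.1 to 14.0 CPM in males. Of the 15 early response and heat shock genes 3 had an unadjusted p under 0.05, all lower in lactating females, with Hspa1a at −1.83. The part of these cells and genes in the members' differences was not tested.

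Insig2 (chr1:121304353-121332589), the retention protein whose gene is known to be less dependent on SREBP2 than Insig1, had the widest range of all members as a ratio of highest to lowest CPM, 3.61. It ran from 40.5 through 73.7 to 105 CPM in lactating females, from 30.5 through 57.2 to 82.6 CPM in virgin females and from 29.2 through 41.9 to 59.6 CPM in virgin males. All groups overlapped, with lactating 1, 5 and 6 and virgin female 1 at the top. Lactating females against virgin males gave 0.84 (SE 0.26, edgeR adjusted p = 0.161), a fold of 1.78. With the cell cycle score as a covariate the difference for Insig2 was 0.45. Sqle, Msmo1 and Cyp51 differed by 0.38, 0.36 and 0.24 (edgeR adjusted p = 0.242, 0.268 and 0.31), with overlapping groups.

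**Figure D3:**
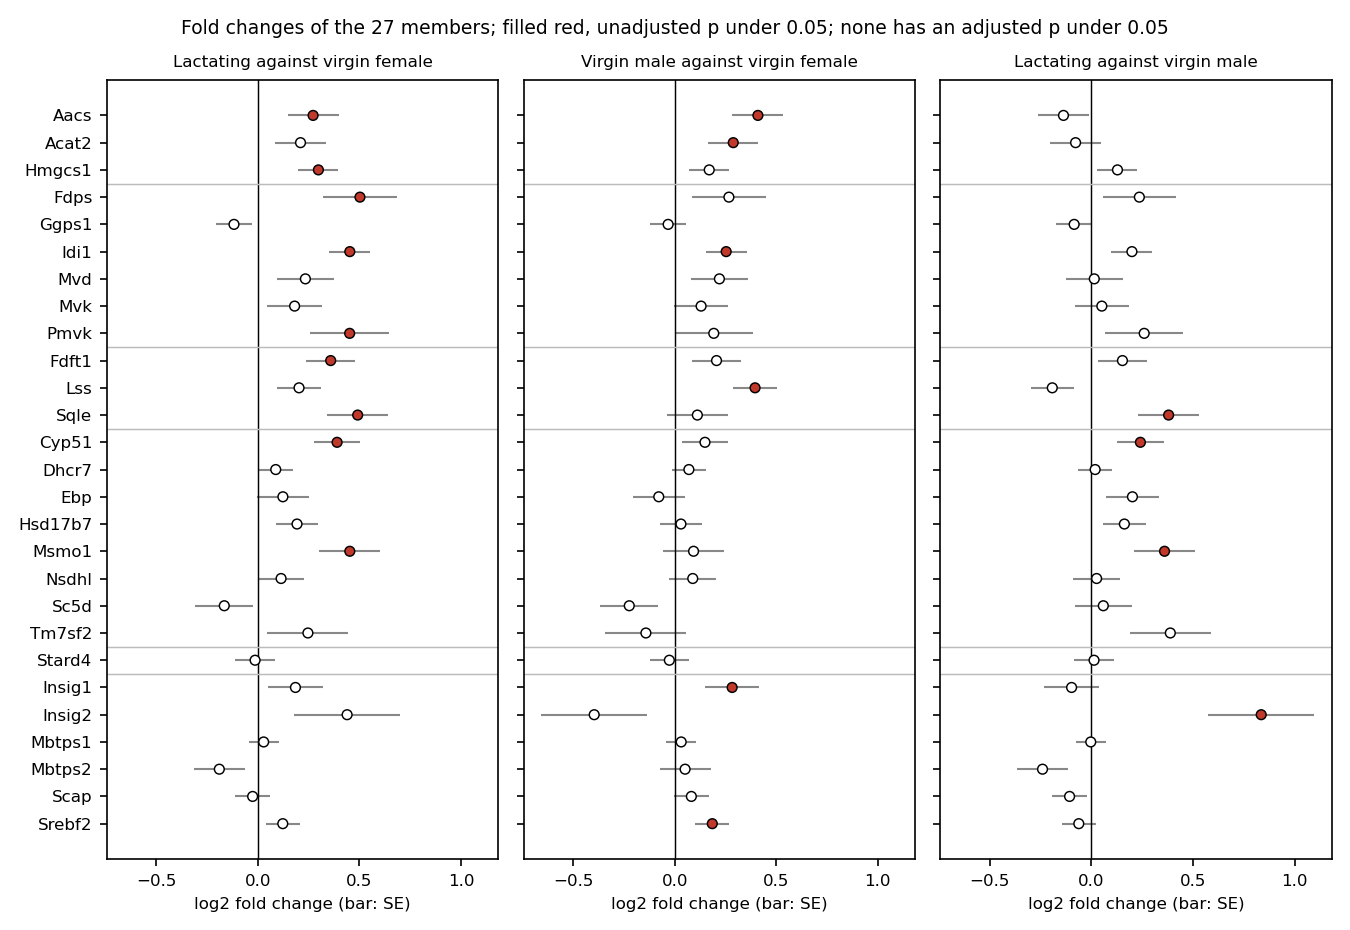
Log2 fold change of each member (points) with its SE (bars) in the 3 comparisons, in the same order of genes as in the plot by library. Red points have an unadjusted p under 0.05, 9 between the female groups, 6 between virgin males and females and 4 between lactating females and virgin males, and none has an adjusted p under 0.05.

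The members varied less among males than among females. The median over members of the SD of log2 CPM was 0.107 in virgin males, 0.229 in lactating and 0.229 in virgin females. Over all genes tested these medians were 0.200, 0.358 and 0.332, and 23 of 27 members, like 70.3% of all genes, had their smallest SD in males. Insig2 had the largest SD in every group, at 0.603 in virgin females, 0.520 in lactating females and 0.357 in males.

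Libraries within every group differed in their cell cycle score, which allowed a test of which members vary with it. A model with the groups and the cell cycle score called 10 of 27 members, 5 in each direction, against 22% of all genes in each direction and 44% in either. The share of members was thus not above that of all genes. Without adjustment 6 members had a p under 0.05 with a positive and 7 with a negative slope, against 25.9% of all genes in each direction, and 9 of 27 slopes were above 0, against 49.8%. Of the 8 enzymes from lanosterol to cholesterol, 4 were lower where the score was higher and 0 were higher. The log2 change per unit of the score was −0.48 for Sc5d (SE 0.06, edgeR adjusted p = 7.43e-06), −0.62 for Tm7sf2 (SE 0.11, edgeR adjusted p = 0.000159), −0.40 for Msmo1 (SE 0.10, edgeR adjusted p = 0.00313) and −0.26 for Ebp (SE 0.10, edgeR adjusted p = 0.0387). Insig2 had the steepest slope, −0.89 (SE 0.14, edgeR adjusted p = 5.19e-05).

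Members called in the other direction were Scap (0.24, SE 0.05, edgeR adjusted p = 0.000827), Aacs (0.31, SE 0.09), Mbtps2 (0.27, SE 0.09), Acat2 (0.27, SE 0.09) and Lss (0.23, SE 0.08). 2 of these act in SREBP2 control and 2 at the entry of the pathway. Sc5d, Insig2, Tm7sf2, Msmo1 and Scap were called in all 18 fits that left out 1 library. Ebp was called in 12 of them, Lss in 14, Aacs and Acat2 in 16 each and Mbtps2 in 17. Without lactating 1 and virgin female 1, the 2 libraries with scores farthest from the median, 6 members were called, 2 positive and 4 negative, in a fit that called 32.6% of all genes. The same numbers were called without virgin female 4 alone (35.9% of all genes). Without lactating 1 alone 2 positive and 9 negative slopes were called (41.9% of all genes). Hmgcs1 (−0.10), Idi1 (0.07), Sqle (−0.12) and Insig1 (0.01) had slopes that did not pass the test.

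**Figure D4:**
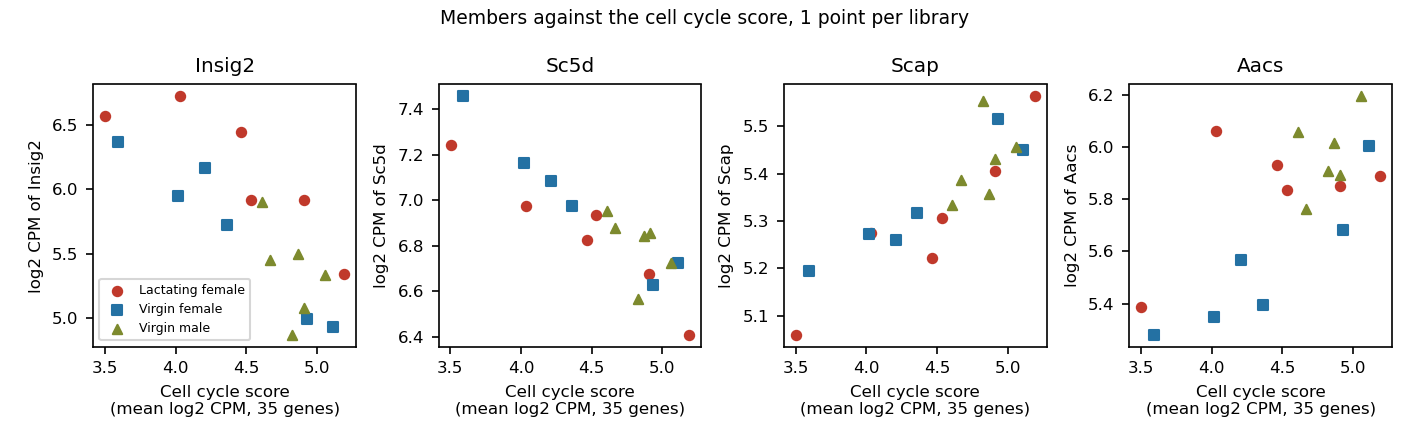
Log2 CPM of Insig2, Sc5d, Scap and Aacs (vertical axes) against the cell cycle score (horizontal axis, mean log2 CPM of 35 genes), 1 point per library, coloured by group. Insig2 and Sc5d are lower, and Scap and Aacs higher, in libraries with a higher score.

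A model with the groups and Hmgcs1 asked which genes follow Hmgcs1 from library to library inside groups. It called 0 of the 26 other members and 0% of all genes by edgeR, and no other tool was run on it. Hmgcs1 set against its own level ranked 5 by unadjusted p, and with an edgeR adjusted p of 0.521 it was not called either. The lack of calls thus cannot show that members do not follow Hmgcs1. By unadjusted p, Fdft1 ranked 1 and Msmo1 ranked 2 of 15572 genes, with log2 changes of 1.32 (SE 0.25) and 1.57 (SE 0.33) per log2 unit of Hmgcs1 and an edgeR adjusted p of 0.521 each. In all, 10 of 26 members had an unadjusted p under 0.05 with a positive slope, against 4.23% of all genes (0 were negative, against 5%), and 22 of 26 slopes were above 0, against 47.5%. The other 8 were Pmvk (1.77), Fdps (1.64), Cyp51 (1.04), Mvd (1.20), Insig2 (2.23), Sqle (1.13), Mvk (0.90) and Idi1 (0.62). That count was 8 to 11 when 1 library was left out, in fits where 1.94% to 7.73% of all genes had such a slope. It was 6 without lactating 5 and virgin female 6, the libraries with Hmgcs1 farthest from the median, where 0.99% of all genes had one.

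All of these 10 but Insig2 are enzymes of the route from mevalonate to cholesterol. Srebf2 had a slope of −0.01 (SE 0.28), Lss 0.06 (SE 0.36), Acat2 0.10 (SE 0.41) and Ggps1 0.03 (SE 0.30). Ggps1 is an enzyme of the branch to geranylgeranyl diphosphate. Scap (−0.44) and Mbtps2 (−0.74) had negative slopes that did not pass the test. The lactating libraries with the highest Hmgcs1, 5 and 6, at 442 and 418 CPM, had cell cycle scores of 4.03 and 4.47. With that score added to the model, 11 of 26 members had an unadjusted p under 0.05 and a positive slope, against 2.34% of all genes.

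**Figure D5:**
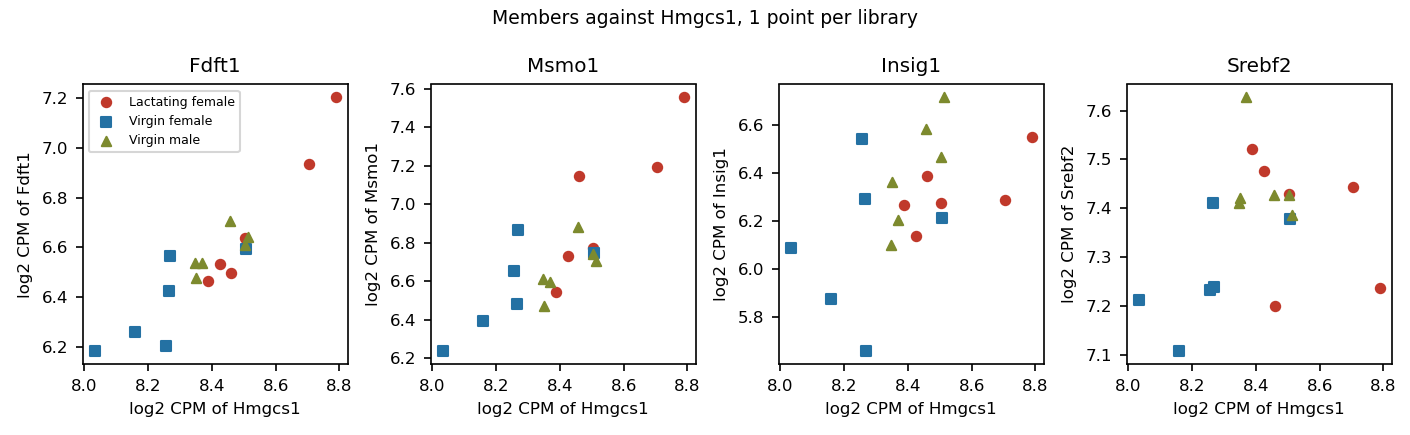
Log2 CPM of Fdft1, Msmo1, Insig1 and Srebf2 (vertical axes) against log2 CPM of Hmgcs1 (horizontal axis), 1 point per library, coloured by group. Fdft1 and Msmo1 climb with Hmgcs1, and lactating 5 and 6 lie at the upper right. The Srebf2 points show no clear climb, and the slope fitted inside groups was −0.01 (SE 0.28).

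Other genes around the pathway were counted in lists. Between the female groups edgeR called 0 genes of the 6 lists, where it called 0.0578% of all genes. The liver X receptor and sterol efflux list, whose genes are known to be switched on by surplus sterol, had 1 of 8 members above 0 and a median of −0.19. Abca1, the exporter of cholesterol to HDL, differed by −1.22 (SE 0.30, edgeR adjusted p = 0.221), and the luminal exporters Abcg8 and Abcg5 by −0.48 and −0.29. Without adjustment 2 of the 8 had a p under 0.05, both lower. Virgin males against virgin females, a comparison that shares the virgin female libraries, gave this list a median of −0.40, with Abca1 at −0.78 and 3 genes at an unadjusted p under 0.05, and lactating females against virgin males a median of 0.09.

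Among SREBP1 and fatty acid synthesis genes 14 of 15 were tested, with a median of −0.03 between the female groups. Elovl5, a fatty acid elongase, differed by −0.32, Srebf1 by −0.30 and the desaturase Scd1 by −0.79, all with an unadjusted p under 0.05 and none called. Of 12 genes of sterol uptake and esterification, with a median of −0.01, 1 had an unadjusted p under 0.05, Lima1 (−0.23), and the HDL receptor Scarb1 differed by 0.51 (SE 0.37). The list of ubiquitin ligases and transport proteins that act on sterol enzymes and SREBP had a median of −0.01 over 15 genes. Its ligase Syvn1 was 0.35 higher than in virgin females without a call, and 0.61 higher than in virgin males (SE 0.13, edgeR adjusted p = 0.0353), the 1 gene of the 6 lists called in any comparison. The 16 isoprenoid branch genes had a median of 0.04 and the 5 electron donors of sterol enzymes −0.16, with Cyb5r3 at −0.44.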

How the data were processed

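Poly(A) RNA of sorted ileal epithelial cells was sequenced in 18 libraries, 6 per group, made with a directional kit, per the labels' protocols. The authors deposited raw read counts per Ensembl gene, 47729 rows per table, of which 0 name no gene. FastQC 0.11.5, HISAT2 2.0.4, featureCounts, Subread 2.0.0 and DESeq2 1.24.0 are named in the submitters' processing notes, as is the build, GRCm38. For strand setting, annotation and multiply matching reads the sources used here give nothing. Symbols were found for 47224 identifiers.

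Members, lists and tests were chosen with earlier results of these data known. Counts were filtered with filterByExpr (15572 genes kept), scaled by TMM and tested with edgeR 4.0.16 (R 4.3.3) quasi-likelihood in 1 model over 18 libraries, with Benjamini-Hochberg adjustment over all genes and a threshold of 0.05. Each SE was taken as |log2 fold change| over the root of the F statistic. Alternatives were DESeq2 1.42.0, limma 3.58.1 voom, other scalings, no filter, a replicate block, a cell cycle covariate, the compared groups alone, and left-out libraries. Log2 CPM used a prior count of 2. Exon lengths and overlaps came from GENCODE M21, promoters from RefSeq. All members were accounted for by role; values per group were given for the 6 members with the smallest p between the female groups, the 4 with the smallest p in each other comparison, and Hmgcs1, Sqle, Insig1 and Srebf2, with Fdps and Pmvk added after their values were seen. Of other lists up to 3 genes with the smallest p between the female groups were eligible; cell type, position and stress markers named beyond that were chosen after their values were seen. No pair of libraries matched within sampling noise (lowest chi-square per degree of freedom 35.6). The tests were checked on simulated data. Between the female groups 26% of genes were recovered at a fold of 1.5 and 64% at a fold of 2, with 2 unchanged genes called. For the cell cycle score 71.5% were recovered at a slope of 1, with 4 genes without a slope called. A lack of calls therefore does not show a lack of difference at folds of 1.5 or less, nor reliably at a fold of 2. The simulated data held more changed genes than were called between the female groups, so recovery may be lower in these data.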

Additional observations from a re-analysis of the deposited data

Results flagged for a closer look

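In 81 combinations of a member and a group, the highest and lowest library were set against the rest by Dixon's ratio, which chance alone passes in about 1 of 20 groups. It singled out 2 libraries. Hsd17b7, the 3-keto reductase of cholesterol synthesis, was at 36.6 CPM in virgin male 3, where the other virgin males lay at 29.7 to 32.1 CPM. Srebf2 was at 198 CPM in virgin male 6, where the other virgin males lay at 167 to 172 CPM. Virgin male 6 is also the male library with the high Gm42418 level.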

How the results depend on the processing

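Of 213 recomputed summary values (counts and medians of members), 207 kept within 1.5 times of the reported count or within the spread between libraries of the reported median. Members called between lactating and virgin females numbered 1 with DESeq2 (0.445% of genes) and 1 with the cell cycle covariate (0.392%), Idi1 in both. Members called for the cell cycle score numbered 6 with a replicate block (22.4% of genes), 6 without the 2 libraries farthest from the median score (32.6%), and 6 to 12 when 1 library was left out (35.9% to 46.3%), with 6 without virgin female 4 (35.9%). Members with the promoter core CACNCCA numbered 6. Left-out libraries moved the median member difference over 0.15 to 0.25 between the female groups, 0.08 to 0.18 between virgin males and females and 0.02 to 0.09 between lactating females and virgin males. Upper quartile scaling gave the last a median of 0.00306. Differences between the female groups changed sign for Stard4 (0.0506 without virgin female 2 and virgin male 6, and −0.0575 to 0.04997 when 1 library was left out) and Scap (−0.0822 to 0.0199 when 1 library was left out). For each of these the cause was not tested. Over all alternatives, genes called ran from 1 to 69 between the female groups, from 10 to 30 between virgin males and females and from 61 to 410 between lactating females and virgin males. Replicate numbers did not pair the libraries, as correlations of same-numbered libraries ran from −0.219 to 0.477; with a replicate block 0 members were called in any of the 3 comparisons, and 1 gene in place of 9 between the female groups. Without virgin female 2 and virgin male 6, 0 members were called in each comparison, with 9, 3 and 3 higher at an unadjusted p under 0.05 (3.13%, 0.834% and 7.55% of genes). The lowest count of any member in a library was 255.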
